A study of Mus musculus with 2 samples.

Results

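The monocyte-attracting CC chemokine genes Ccl2, Ccl7, Ccl8 and Ccl12 and the receptor gene Ccr2 were followed across the cell classes of mouse skin. These 5 genes were chosen by symbol and all 5 were found among the 55471 gene entries of the count tables. The material was back skin of C57BL/6 mice, 7 weeks old, taken apart into single cells. Imiquimod activates Toll-like receptor 7 and brings on inflamed, scaly skin resembling psoriasis, and the first library came from mice that received it alone. The second came from mice that received Shi-Bi-Man, a natural product studied here for its action on psoriasis, in addition to imiquimod. Both libraries thus carried imiquimod, and untreated skin was not part of the comparison. Each group was 1 library, the labels do not state how many mice went into it, and no difference below has a replicate check or a p-value. Ratios are log2 of the Shi-Bi-Man plus imiquimod value over the imiquimod value, and all intervals are 95% intervals that cover counting error only.

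CCL2, CCL7, CCL8 and CCL12 are small secreted proteins that form gradients in tissue and draw leukocytes along them. CCR2 is the receptor through which CCL2, CCL7 and CCL12 pull classical monocytes out of the bone marrow and blood, and it is also carried by some T cells, including interleukin-17-producing gamma delta T cells of the skin. Mouse CCL8 acts mainly through CCR8, a receptor of T cells. In skin the ligands are known products of dermal fibroblasts, vessel cells and macrophages.

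The 4 ligand genes are neighbours on chromosome 11 of the GRCm38 build. Ccl2 (ENSMUSG00000035385) lies at chr11:82035571-82037453, Ccl7 (ENSMUSG00000035373) at chr11:82045712-82047525, Ccl12 (ENSMUSG00000035352) at chr11:82101845-82103400 and Ccl8 (ENSMUSG00000009185) at chr11:82115185-82116799. All 4 are on the plus strand with 3 exons, and Ccl11, the eosinophil chemokine gene, sits between Ccl7 and Ccl12. Ccr2 (ENSMUSG00000049103) lies on chromosome 9 at chr9:124101950-124113557. No stretch of 31 bases in the exons of the 4 ligand genes was found in another annotated gene, whereas 3.41% of those of Ccr2 were. Transcripts were searched in their own direction only, so overlaps on the other strand were not covered. The gene model Gm17268 overlaps Ccl2 on the other strand, and since the counting rule for strand was not given, their reads could not be told apart.

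Ccl12 and Ccl8, the pair of ligand genes that stood higher with Shi-Bi-Man in the same macrophage cluster (below), had entries in the set of RefSeq promoters used. The 250 bases before each start are printed here, from GRCm38.p6, plus strand, at chr11:82101595-82101844 for Ccl12 and chr11:82114935-82115184 for Ccl8. Capitals mark runs of at least 7 identical bases in the alignment of the 2 promoters.
Ccl12: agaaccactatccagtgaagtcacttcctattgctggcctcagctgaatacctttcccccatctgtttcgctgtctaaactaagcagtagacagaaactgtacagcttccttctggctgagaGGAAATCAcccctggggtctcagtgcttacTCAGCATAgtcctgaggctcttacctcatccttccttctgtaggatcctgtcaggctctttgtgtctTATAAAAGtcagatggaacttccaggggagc
Ccl8: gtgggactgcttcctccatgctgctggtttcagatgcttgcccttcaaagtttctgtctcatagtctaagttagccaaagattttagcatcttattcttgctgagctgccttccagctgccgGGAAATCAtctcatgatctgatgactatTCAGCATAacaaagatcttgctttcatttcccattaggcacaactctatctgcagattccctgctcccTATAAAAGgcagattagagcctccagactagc
The 2 promoters were identical at 143 of 235 aligned positions (60.9%), against 41.6% for Ccl12 and 43.6% for Ccl8 when each was aligned with the promoter of Ccr2. Ccl2 and Ccl7 had no entry in the promoter set used, so likeness to their promoters could not be measured. The 3 shared runs began 128, 98 and 31 bases before the start of Ccl12 and 128, 100 and 32 bases before that of Ccl8. Searched on both strands, GGAAATCA was present in 0.983% of 32851 promoters of this length, TCAGCATA in 0.481% and TATAAAAG, which contains the TATA box letters TATAAAA, in 1.51%. The letters GAGGAA, the core of PU.1 sites, occurred in both promoters and in 23.3% of all. TGANTCA (AP-1), TTCNNNGAA (STAT), the NF-kB motif and the interferon response motif were not found in these windows, and a match or its lack is a description of the letters only.

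The libraries held 28920316 counts in 11316 barcodes (imiquimod) and 20837259 in 8054 (Shi-Bi-Man plus imiquimod), and 11019 and 7863 cells were retained. The 2 libraries shared 49 cell barcodes. Cells of both libraries were clustered together with every chemokine and chemokine receptor gene left out, so that the 5 genes did not shape the 27 clusters, and clusters were named from markers with the ending -like. Levels are CPM, the counts of a gene scaled to 1e+06 counts of the class in that library. Macrophage and monocyte-like cells made up 14.2% of cells with imiquimod and 9.61% with Shi-Bi-Man, T and NK-like cells 22.8% and 6.49%, and fibroblast-like cells 18.7% and 29.0%. The macrophage and monocyte class held counts of all 20 of its markers in both libraries. Free RNA gives every droplet some counts of abundant transcripts, and T and NK-like cells were the control for the ligands and fibroblast-like cells for Ccr2.

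The 5 genes had different sources in the cells of the skin. Fibroblast-like cells held 58.9% of all Ccl2 counts in the imiquimod library and 70.6% in the Shi-Bi-Man library, and 63.8% and 73.4% of Ccl7. Macrophage and monocyte-like cells held 62.7% and 69.6% of Ccl8 and 92.8% and 84.5% of Ccl12. Ccr2 counts came from T and NK-like cells (52.0% and 27.1%) and from macrophage and monocyte-like cells (41.2% and 65.0%). Over all retained cells, Ccl2 stood at 461 CPM with imiquimod and 364 with Shi-Bi-Man (log2 ratio -0.34, interval -0.38 to -0.30) and Ccl7 at 597 and 577 (-0.05, -0.08 to -0.01). Ccl8 stood at 272 and 613 CPM (1.17, 1.13 to 1.22), Ccl12 at 20.9 and 26.5 (0.34, 0.17 to 0.51), and Ccr2 at 69.3 and 22.4 (-1.63, -1.78 to -1.48). Over all cells Ccl8 and Ccl12 were thus higher in the Shi-Bi-Man library, and Ccl2, Ccl7 and Ccr2 lower, Ccl7 by little. These all-cell values combine the make-up of each library with the level in each class, and the classes are described in turn.

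**Figure D1:**
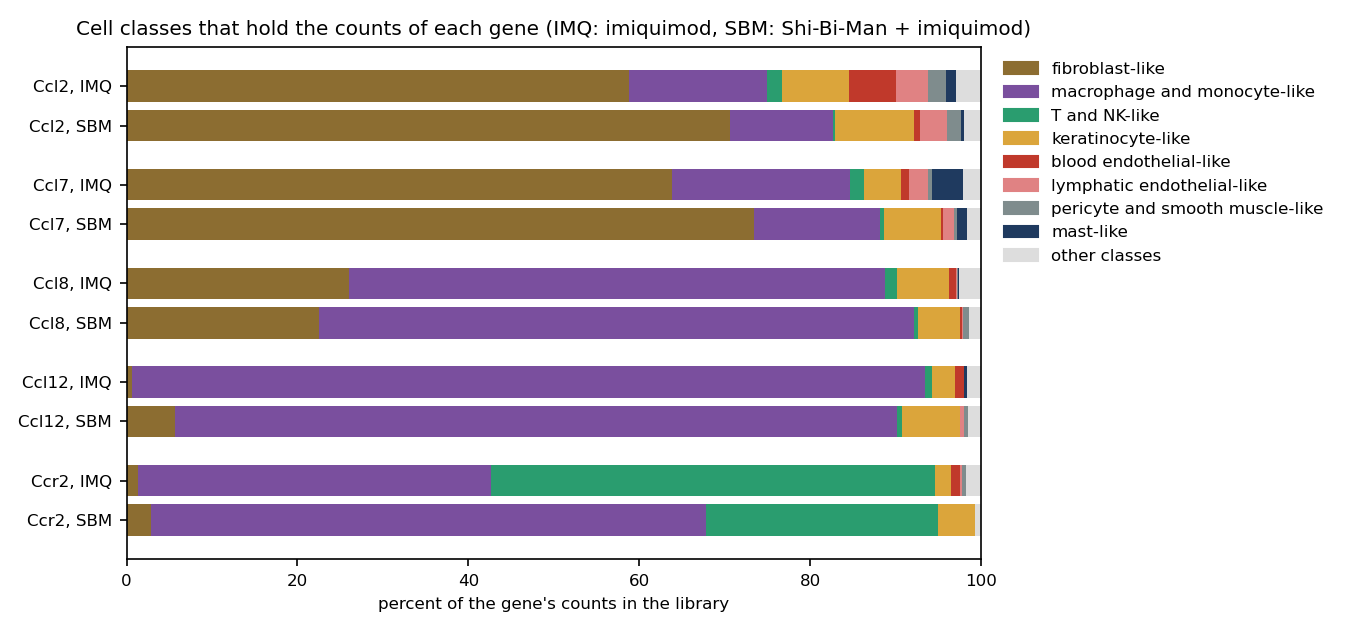
Share of the counts of each gene that fell in each cell class, as percent of the gene's counts in that library (horizontal axis), for the imiquimod (IMQ) and the Shi-Bi-Man plus imiquimod (SBM) library. Fibroblast-like cells hold 58.9% and 70.6% of Ccl2 and 63.8% and 73.4% of Ccl7, macrophage and monocyte-like cells hold 62.7% and 69.6% of Ccl8, and Ccr2 is split between macrophage and monocyte-like and T and NK-like cells.

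Across the 10 classes with at least 100 cells in each library, each gene had its own order. Ccl2, the main monocyte attractant, was highest with imiquimod in fibroblast-like cells (1652 CPM, 1615 to 1689) and lymphatic endothelial-like cells (1652, 1509 to 1805), which did not differ beyond counting error. They were followed by macrophage and monocyte-like (795), pericyte and smooth muscle-like (654) and blood endothelial-like cells (598), and the last 2 intervals overlapped. With Shi-Bi-Man, lymphatic endothelial-like (1075, 943 to 1220) and fibroblast-like cells (1025, 998 to 1053) again led and overlapped, but blood endothelial-like cells stood at 119 CPM (88.0 to 157). In the control class, T and NK-like cells, Ccl2 stood at 74.8 and 42.8 CPM.

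Ccl7, whose product attracts monocytes through CCR2 as well as other leukocytes, was highest in fibroblast-like cells in both libraries (2317 and 1692 CPM). With imiquimod, macrophage and monocyte-like (1334, 1290 to 1378) and lymphatic endothelial-like cells (1321, 1193 to 1458) came next and overlapped. With Shi-Bi-Man, macrophage and monocyte-like cells (1619, 1544 to 1697) lay close under fibroblast-like cells (1657 to 1728) with overlapping intervals, and lymphatic endothelial-like cells stood at 674. All other classes lay between 34.8 and 172 CPM with imiquimod and between 42.1 and 180 with Shi-Bi-Man, against 88.8 and 104 in the control class. Mast-like cells, with 65 and 18 cells too few for the comparison, had 7359 CPM of Ccl7 with imiquimod and 6257 with Shi-Bi-Man, above fibroblast-like cells in both libraries. With imiquimod this total rested on a minority of cells: the median mast-like cell had 0 CPM and the cell at the 90th percentile 32392. The median with Shi-Bi-Man was 3479. The leading genes of this cluster also included Retnlg, from the neutrophil marker list, beside mast cell genes such as Tpsb2 and Cma1.

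For Ccl8 the macrophage and monocyte class came first, at 1824 and 8117 CPM, and fibroblast-like cells second, at 431 and 552. The other 8 classes lay between 28.8 and 49.98 CPM with imiquimod. With Shi-Bi-Man 7 of them lay between 42.9 and 94.4 CPM, and pericyte and smooth muscle-like cells stood at 316, where 76.6% of 77 counts came from 1 cell. The control class was within these ranges, at 35.5 and 93.7 CPM. Ccl12, a ligand of CCR2 found in mice, had 208 and 425 CPM in the macrophage and monocyte class and at most 12.3 CPM in any other of the 10 classes. Fibroblast-like cells had 4 and 31 Ccl12 counts, and 35.5% of the 31 came from 1 cell.

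Among the 10 classes Ccr2 was high in T and NK-like (333 and 253 CPM) and macrophage and monocyte-like cells (306 and 276), whose intervals overlapped in each library. The other 8 classes lay between 4.11 and 20.3 CPM with imiquimod and at or under 2.54 CPM with Shi-Bi-Man, 4 of them with 0 counts there. The control class, fibroblast-like cells, stood at 5.78 and 2.54 CPM.

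**Figure D2:**
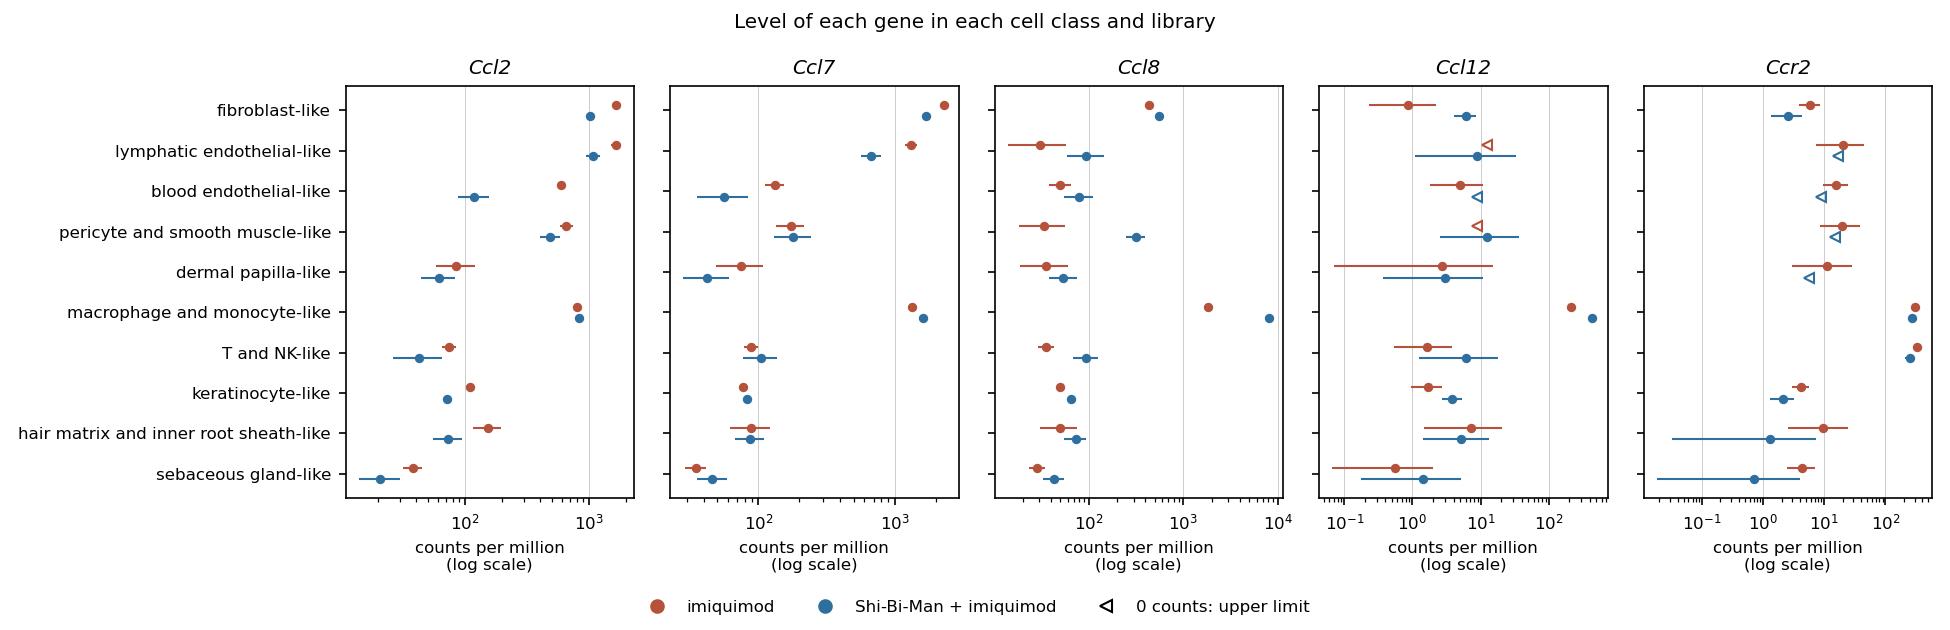
Level of each gene (horizontal axis, CPM on a log scale, with its own range per gene) in the 10 classes with at least 100 cells in each library (vertical axis). Dots are class totals, bars the exact Poisson 95% intervals of counting error, and open triangles the upper limits of classes with 0 counts. Ccl8 in macrophage and monocyte-like cells stands at 1824 and 8117 CPM, and Ccl2 in blood endothelial-like cells at 598 and 119 CPM.

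Counted over classes in which a gene had at least 20 counts, Ccl8 was at least 1.5-fold higher with Shi-Bi-Man in 5 of 10 classes and lower in 0, and Ccl12 higher in 3 of 3. Ccl2 was at least 1.5-fold lower in 7 of 10 classes and higher in 0, and Ccl7 lower in 3 of 10 and higher in 0. Ccr2 was lower in 2 of 4 and higher in 0. The shares of all genes at least 1.5-fold higher and lower in the smaller sources were 14.6% and 12.1% in keratinocyte-like, 14.8% and 15.5% in pericyte and smooth muscle-like, 31.8% and 13.6% in dermal papilla-like, 29.0% and 13.2% in hair matrix and inner root sheath-like, and 13.7% and 9.37% in sebaceous gland-like cells, and those of the other classes stand beside their counts below. These counts of members include classes at the level of the control class, and T and NK-like cells themselves had Ccl8 ratios of 1.41 and Ccl2 ratios of -0.78. Most of the genes' counts lay in 3 or 4 classes, and the account turns to these.

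In macrophage and monocyte-like cells Ccl8 and Ccl12 were higher with Shi-Bi-Man. Of the 5 genes, 2 were at least 1.5-fold higher with Shi-Bi-Man there, against 13.8% of all 10510 genes measured in the class, and 0 were lower, against 11.5%. Ccl8 stood at 1824 CPM with imiquimod (1773 to 1877, 4840 counts in 1568 cells) and at 8117 with Shi-Bi-Man (7947 to 8289, 8726 counts in 756 cells), a log2 ratio of 2.15 (2.10 to 2.20). Of the genes measured in the class, 33 had a higher ratio. Ccl12 stood at 208 CPM (191 to 226) and 425 (387 to 466), a ratio of 1.03 (0.85 to 1.21). Ccl2 did not differ beyond counting error, at 795 and 832 CPM (0.07, -0.05 to 0.18), and Ccl7 stood at 1334 and 1619 (0.28, 0.20 to 0.36).

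The class was made of 2 clusters that differed in these genes. Cluster 6 was led by Cd209f, Folr2, Cd163 and Timd4, genes of resident tissue macrophages, and held 527 and 320 cells. Its summed level of the 11 resident macrophage markers was 17571 and 16831 CPM, with none at 0, and that of the 10 monocyte markers 279 and 315 CPM, with Itgam at 0 in both libraries and Chil3 at 0 with Shi-Bi-Man. Cluster 7, led by Ear2, Lyz1 and Mmp12, held 1041 and 436 cells, with 1426 and 2658 CPM of resident markers and 1751 and 1018 CPM of monocyte markers. Itgam was at 0 in both libraries there too, so it did not set the clusters apart. Cluster 7 was also rich in major histocompatibility class II transcripts. At a finer resolution 512 and 158 cells, a sub-cluster lying mainly in cluster 7 and led by Ear2, Chil3 and Cd209a, lost the class name because their leading genes held more markers of dendritic cells. Cluster 6 made up 33.6% of the class with imiquimod and 42.3% with Shi-Bi-Man.

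In cluster 6, Ccl8 stood at 5347 CPM (5191 to 5506) with imiquimod and at 18614 (18219 to 19016) with Shi-Bi-Man, 3.48-fold higher (log2 ratio 1.80, 1.75 to 1.85). These 320 cells held 67.4% of all Ccl8 counts of their library. Ccl8 ranked 14th and 2nd among all genes by counts in this cluster, and 46 of 7447 genes measured had a higher ratio. The difference was spread over the cells of the cluster. The median cell had 1015 CPM with imiquimod and 8667 with Shi-Bi-Man, and the cell at the 90th percentile 12454 and 52253. After every cell was thinned to 500 counts, 46.1% (41.8 to 50.5) and 78.8% (73.9 to 83.1) of cells had a Ccl8 count, against 60.9% and 84.1% without thinning. The control T and NK-like cells had 1.75% and 5.49% after thinning, with median depths of 1007 and 779.5 counts against 1409 and 1255.5 in cluster 6. Among cells with a count, the mean was 5.19 and 10.8 counts per 500.

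Ccl12 in cluster 6 stood at 424 CPM (381 to 471) and 840 (758 to 929), 1.98-fold higher (0.98, 0.77 to 1.20), with a count in 12.5% and 17.5% of thinned cells. Those shares had overlapping intervals (9.82 to 15.7 and 13.5 to 22.1), and 1 cell held 10.8% of the 381 Ccl12 counts with Shi-Bi-Man. Ccl7 did not differ beyond counting error in cluster 6, at 2950 and 3025 CPM (0.04, -0.06 to 0.13). Ccl2 was lower, at 1599 and 1261 (-0.34, -0.49 to -0.20). The 4 ligand genes of the same cells thus had ratios from -0.34 to 1.80, and the higher level was seen for Ccl8 and Ccl12. A link between these ratios and the promoters printed above was not tested. Of the 5 genes, 2 were at least 1.5-fold higher in cluster 6, against 14.4% of genes measured, and 1, Ccr2, was lower, against 12.2%.

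**Figure D3:**
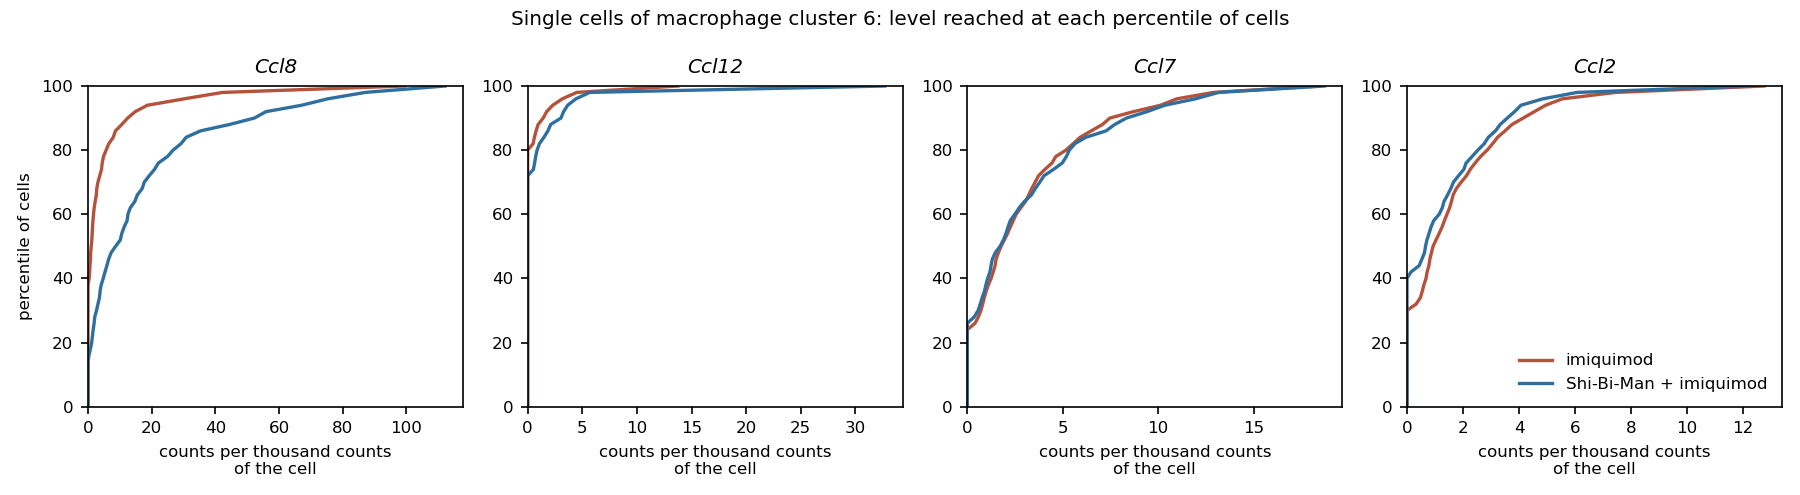
Level of Ccl8, Ccl12, Ccl7 and Ccl2 in single cells of macrophage cluster 6 (horizontal axis, counts of the gene as a share of all counts of the cell, in per mille, with its own range per gene), read at each percentile of the 527 cells (imiquimod) and 320 cells (Shi-Bi-Man plus imiquimod) (vertical axis). The Ccl8 curves are apart over most of the range, while those of Ccl7 lie nearly on each other (cluster totals of 2950 and 3025 CPM).

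In cluster 7 the levels of the ligand genes were lower in both libraries. Ccl8 stood at 203 CPM (182 to 224) and 455 (404 to 512), a ratio of 1.17 (0.94 to 1.40), with a count in 3.07% and 10.6% of thinned cells. Ccl2 stood at 424 and 520 CPM (0.29, 0.10 to 0.48), Ccl7 at 590 and 594 (0.01, -0.16 to 0.18) and Ccl12 at 108 and 122 (0.18, -0.23 to 0.56). The higher Ccl7 of the class as a whole was thus found in neither cluster. Only Ccl8 was at least 1.5-fold higher in this cluster, against 15.8% of genes measured, and 0 of the 5 were lower, against 15.1%. In the finer sub-cluster led by Ear2, Chil3 and Cd209a, Ccl8 stood at 32.8 and 101 CPM, close to the control class.

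Other values differed along with the macrophage result, and their part in it was not tested. In cluster 6 the summed markers of fibroblasts stood at 3283 and 4403 CPM and those of keratinocytes at 4882 and 6310. Of 12 genes of dissociation and immediate early response, 3 were at least 1.5-fold higher in the macrophage and monocyte class, against 13.8% of all genes. Of the 12, 0 were lower, against 11.5%, and their median was 0.24, against 0.02 over all genes. The heat shock genes Hspa1a (1.26) and Hspa1b (1.56) were among those higher. The 5 erythroid markers, haemoglobin genes among them, summed to 653 and 262 CPM in cluster 6 and to 3003 and 11.3 CPM in cluster 7. Markers of B and plasma cells summed to 6018 and 225 CPM in cluster 7 and to 566 and 441 in cluster 6.

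Fibroblast-like cells were the main source of Ccl2 and Ccl7, and here the class and its clusters gave different directions. Over the class, Ccl2 stood at 1652 CPM with imiquimod and 1025 with Shi-Bi-Man (-0.69, -0.74 to -0.64) and Ccl7 at 2317 and 1692 (-0.45, -0.49 to -0.41). Of the 5 genes, 2 were at least 1.5-fold lower, Ccl2 and Ccr2, against 10.5% of 13025 genes measured, and 1, Ccl12, was higher, against 9.65%. Ccr2 and Ccl12 were near background there, with 27 and 13 and with 4 and 31 counts.

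The class held 4 clusters whose shares differed between the libraries. Cluster 4, led by Sfrp4, Thbs4 and Myoc, was 41.9% of the class with imiquimod (39.8 to 44.1) and a smaller share, 19.6%, with Shi-Bi-Man (18.0 to 21.3). Cluster 5, led by Cyp2f2 and Saa3, was 22.2% and 35.2%, cluster 9, led by Sema3a and Igfbp2, 10.95% and 26.4%, and cluster 16, led by Coch and Kera, 24.96% and 18.8%. Cluster 4 was also the cluster with most Ccl2 and Ccl7. It held 45.8% of all Ccl2 counts of the imiquimod library and 30.8% of those of the other, and 51.8% and 39.1% of Ccl7.

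Within each of the 4 clusters Ccl7 was higher with Shi-Bi-Man, not lower. It stood at 4194 and 4975 CPM in cluster 4 (0.25, 0.19 to 0.30), 1135 and 1297 in cluster 5 (0.19, 0.10 to 0.29), 362 and 643 in cluster 9 (0.82, 0.58 to 1.08) and 533 and 692 in cluster 16 (0.38, 0.21 to 0.55). Ccl2 was lower in cluster 4, at 2869 and 2466 CPM (-0.22, -0.29 to -0.15), and in cluster 16, at 896 and 801 (-0.16, -0.30 to -0.02). It was higher in cluster 5, at 574 and 723 (0.33, 0.20 to 0.46), and in cluster 9, at 418 and 598 (0.52, 0.28 to 0.76). When the clusters were given the weights they had with imiquimod, the class ratio was -0.13 for Ccl2 and 0.26 for Ccl7. The lower class totals of both genes were thus found together with the smaller share of cluster 4, and no single cluster was as low as the class.

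The cells of cluster 4 were not alike in these genes. The median cell had 382 CPM of Ccl2 with imiquimod and 508 with Shi-Bi-Man, and the 10% of cells with most Ccl2 held 65.4% and 59.3% of its counts. After thinning, 34.9% (31.7 to 38.2) and 37.6% (33.1 to 42.3) of cells had a Ccl2 count, and 51.7% (48.3 to 55.1) and 59.5% (54.8 to 64.1) a Ccl7 count. The control T and NK-like cells had 3.02% and 1.96% for Ccl2 and 4.21% and 4.71% for Ccl7. Median depths were 2043 and 1908 counts in cluster 4.

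Ccl2 and Ccl7 were often found in the same cells. In cluster 4, 73.8% of thinned cells with a Ccl2 count also had a Ccl7 count with imiquimod and 77.4% with Shi-Bi-Man, against 39.8% and 48.7% of cells without Ccl2. In macrophage cluster 6 the shares were 68.9% and 67.3% against 48.3% and 47.3%. Cells thinned to the same total still differ in RNA content and state, so these shares describe the cells and carry no test. Ccl8 in cluster 4 was found in 11.3% and 13.7% of cells with Ccl2 and in 8.0% and 9.7% of cells without it.

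Ccl8 in fibroblast-like cells stood at 431 and 552 CPM (0.36, 0.28 to 0.44), with no common direction over clusters. It was 321 and 309 CPM in cluster 4 (-0.05, -0.26 to 0.15), 724 and 876 in cluster 5 (0.27, 0.16 to 0.39), 829 and 542 in cluster 9 (-0.61, -0.80 to -0.42) and 101 and 152 in cluster 16 (0.58, 0.20 to 0.97). The fibroblast cluster with the highest Ccl8 was cluster 9 with imiquimod and cluster 5 with Shi-Bi-Man. With the weights of the imiquimod library the class ratio was 0.03.

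**Figure D4:**
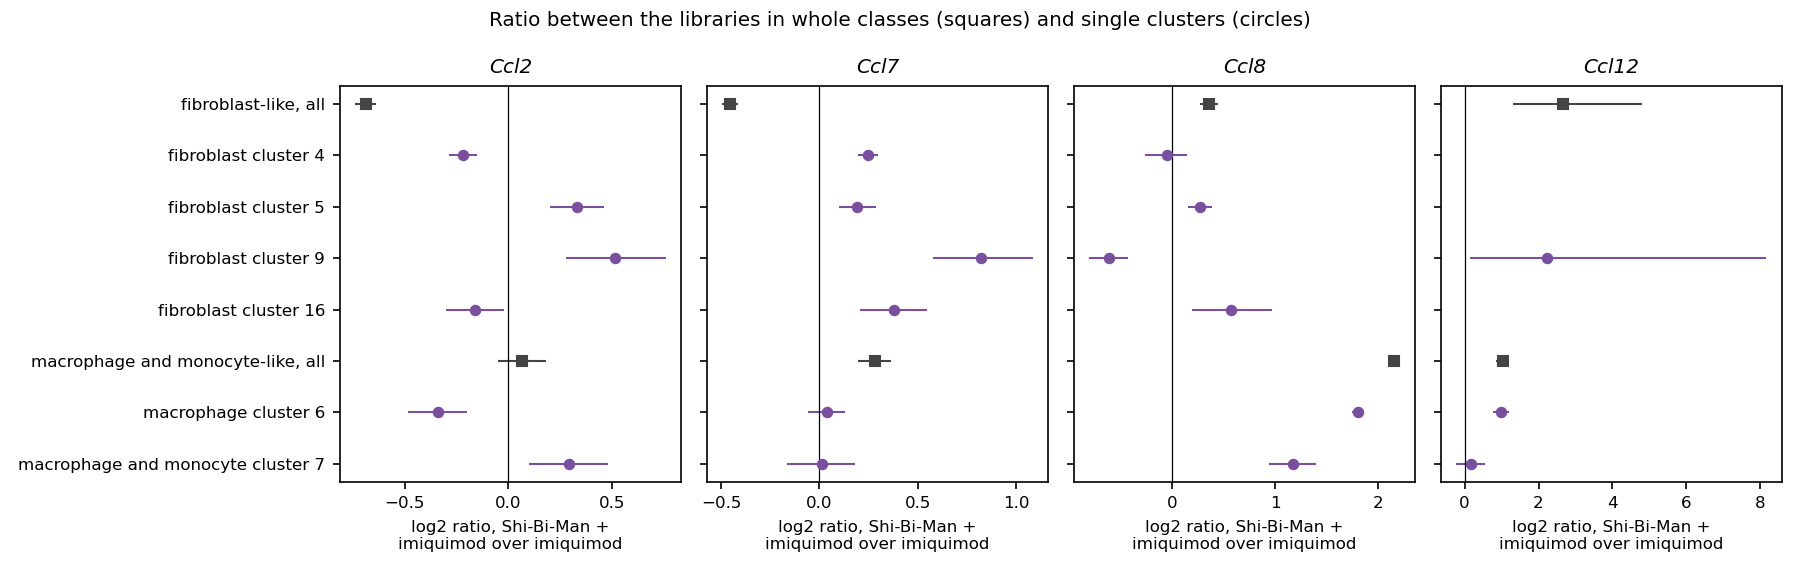
Log2 ratio of the Shi-Bi-Man plus imiquimod over the imiquimod library (horizontal axis, with its own range per gene) for Ccl2, Ccl7, Ccl8 and Ccl12 in fibroblast-like and macrophage and monocyte-like cells (squares) and in their clusters (circles), where the gene had at least 20 counts. Bars are exact 95% intervals of counting error. Ccl7 is at -0.45 in the fibroblast class and between 0.19 and 0.82 in its 4 clusters.

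Blood endothelial-like cells, which line the vessels that leukocytes cross, had the largest lower ratio of Ccl2 among the 10 classes. Ccl2 stood at 598 CPM with imiquimod (555 to 644, 718 counts in 503 cells) and at 119 with Shi-Bi-Man (88.0 to 157, 49 counts in 247 cells), 4.98-fold lower (-2.32, -2.78 to -1.91). Of 7892 genes measured in the class, 112 had a lower ratio. Both finer sub-clusters had it: one led by Selp and Sele, adhesion genes of venules, had 332 and 74.1 CPM (-2.13), and one led by Gkn3 and Gpihbp1, genes of arterial and capillary endothelium, 826 and 217 CPM (-1.90). The class ratio of -2.32 lay below both, and the shares of the sub-clusters in each library are not given here. The level rested on few cells, since 90.8% of the Ccl2 counts with imiquimod were in the highest 10% of cells. With imiquimod, 22 of the 503 cells had at least 10 counts of Ccl2, against 1 of the 247 with Shi-Bi-Man. The doublet filter had removed 83 cells over all classes of the Shi-Bi-Man library and 0 of the imiquimod library, so the 2 were not filtered alike. Values with doublets kept are given below.

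After thinning to 500 counts, 9.74% (7.29 to 12.7) and 4.86% (2.54 to 8.33) of blood endothelial-like cells had a Ccl2 count, against 3.02% and 1.96% of control T and NK-like cells. The interval with Shi-Bi-Man overlapped that of its control (0.944 to 3.58). Median depths of the endothelial cells were 1861 and 1252 counts. Ccl7 in the class stood at 132 and 55.8 CPM (-1.21, -1.94 to -0.60), of which 48.7% of the imiquimod counts came from 1 cell. Of the 3 genes with at least 20 counts there, 2 were at least 1.5-fold lower, against 18.7% of genes measured, and 1, Ccl8, was higher, against 13.7%. Ccl8 stood at 49.98 and 80.1 CPM, close to the control class (35.5 and 93.7), and 31.7% of its imiquimod counts came from 1 cell.

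Markers of other cells also differed in blood endothelial-like cells, and their part in the result was not tested. Markers of T and NK cells summed to 877 and 257 CPM and those of macrophages to 536 and 410, and Il17a, a T cell cytokine gene, had 213 CPM with imiquimod and 0 counts with Shi-Bi-Man. Of the 12 dissociation genes, 0 passed 1.5-fold in this class, against 13.7% of all genes higher and 18.7% lower. When doublets were kept and the cells clustered again, the class had 497 and 253 cells and the Ccl2 ratio was -1.56, with 2 Shi-Bi-Man cells at 10 counts or more and a highest cell of 28 counts, against 14 before.

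Lymphatic endothelial-like cells had as much Ccl2 as fibroblast-like cells. Ccl2 stood at 1652 and 1075 CPM (-0.62, -0.85 to -0.39), with a count in 29.0% (22.0 to 36.9) of 155 thinned cells with imiquimod and 10.9% (6.60 to 16.7) of 165 with Shi-Bi-Man. Ccl7 stood at 1321 and 674 CPM (-0.97, -1.25 to -0.69), but 40.7% of its counts with Shi-Bi-Man came from 1 cell. Of the 3 genes measured here, 2 were at least 1.5-fold lower, against 13.6% of genes measured, and 1 was higher, against 18.3%. The one higher, Ccl8, had 9 and 21 counts, close to the level of the control class. Ackr2, the receptor by which lymphatic vessels take up and degrade CC chemokines, stood at 172 and 103 CPM (-0.72, -1.51 to 0.00). Fibroblast markers summed to 3195 and 10053 CPM in this class, and of the 12 dissociation genes 3 were at least 1.5-fold higher and 0 lower, with Hspa1a at 1.13 and Hspa1b at 1.44. Their part in the result was not tested.

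Pericyte and smooth muscle-like cells stood at 654 and 488 CPM of Ccl2 (-0.42, -0.75 to -0.11) and 172 and 180 of Ccl7 (0.07, -0.51 to 0.63). With imiquimod 1 cell held 76 of the 270 Ccl2 counts, and 4 of 227 cells had at least 10. The highest cell with Shi-Bi-Man had 18 of 119. The lower Ccl2 ratio thus rests on few cells, which the counting interval does not cover. Keratinocyte-like cells had 109 and 71.4 CPM of Ccl2 (-0.61, -0.76 to -0.47), not far above the control class, and 77.3 and 82.4 of Ccl7 (0.09, -0.05 to 0.24). The keratinocyte clusters were so unequally filled that class values compare different cells. The cluster with 36.6% of the class with Shi-Bi-Man held 1.52% with imiquimod, and weighting by imiquimod shares gave a Ccl2 ratio of -0.19.

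The ratio of Ccl7 to Ccl2 counts compared classes without regard to how much of either gene they held. It was 1.29 over all cells with imiquimod and 1.59 with Shi-Bi-Man. Fibroblast-like cells (1.40 and 1.65) and macrophage and monocyte-like cells (1.68 and 1.95) were above these values by less than mast-like cells were. Mast-like cells stood at 3.85 (3.23 to 4.61) and 4.67 (3.13 to 7.17). Vessel cells were lower: 0.22 (0.18 to 0.26) and 0.47 (0.27 to 0.79) in blood endothelial-like cells, 0.26 (0.20 to 0.34) and 0.37 (0.26 to 0.53) in pericyte and smooth muscle-like cells, and 0.80 and 0.63 in lymphatic endothelial-like cells. For the pericyte and smooth muscle-like value with imiquimod, 76 of the 270 Ccl2 counts came from 1 cell. Keratinocyte-like cells were also lower, at 0.71 (0.64 to 0.78) and 1.15 (1.04 to 1.28). In the control T and NK-like cells it was 1.19 (0.99 to 1.42) and 2.43 (1.44 to 4.25), with intervals that held the value over all cells. The intervals of the other classes named here did not hold the all-cell ratio in either library.

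**Figure D5:**
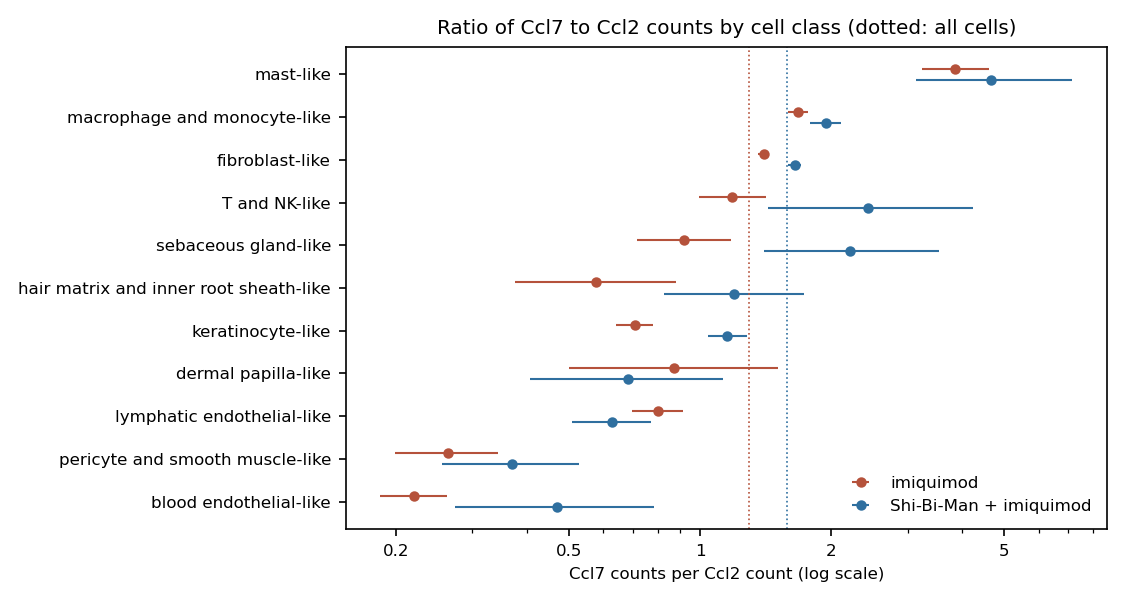
Ccl7 counts per Ccl2 count (horizontal axis, log scale) in 11 cell classes (vertical axis) for both libraries. Bars are exact 95% intervals of counting error and dotted lines the ratios over all cells (1.29 and 1.59). Mast-like cells are at 3.85 and 4.67, and blood endothelial-like cells at 0.22 and 0.47.

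The receptor gene Ccr2 was concentrated in leukocyte clusters. In T and NK-like cells it stood at 333 CPM (313 to 354) with imiquimod and 253 (210 to 301) with Shi-Bi-Man (-0.39, -0.68 to -0.13). Of 4 genes measured in this class, 1 (Ccl8) was at least 1.5-fold higher, against 19.4% of genes, and 1 (Ccl2) lower, against 16.3%, both at the level used here as background. Cluster 0, led by the gamma delta T cell genes Cd163l1 and Blk and by Il23r, had 384 and 291 CPM of Ccr2 (-0.39, -0.77 to -0.04) and held 72.6% and 43.9% of the class. Cluster 1, led by Klrg1 and Gzmc, had 192 and 319 CPM (0.74, 0.24 to 1.21), but 15.4% of its 52 counts with Shi-Bi-Man came from 1 cell. Cluster 24, led by Trat1 and Cd7, had 2 and 3 counts. The ratios of the 2 larger clusters thus had opposite signs, and the difference was not tested.

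In macrophage and monocyte-like cells Ccr2 stood at 306 (285 to 328) and 276 CPM (246 to 310), which did not differ beyond counting error (-0.15, -0.34 to 0.05). Cluster 7 had 397 and 452 CPM (0.19, -0.02 to 0.39), and a count in 16.6% (14.4 to 19.0) and 15.8% (12.5 to 19.6) of thinned cells, against 0.436% and 0.0878% of control fibroblast-like cells, whose median depths were 1957 and 2077 counts against 1415 and 1222.5. Cluster 6 had 109 and 35.3 CPM (91 and 16 counts, -1.59, -2.49 to -0.85), and 37.5% of the 16 counts came from 1 cell. In the class, Ccl8 was found in 1.1% of thinned cells with Ccr2 and 19.7% of those without with imiquimod, and in 6.7% and 43.0% with Shi-Bi-Man. Ccr2 and Ccl8 were thus held mostly by different cells, Ccr2 by cluster 7 and Ccl8 by cluster 6.

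The all-cell Ccr2 ratio of -1.63 was lower than that of either class that carries the gene. T and NK-like cells made up 22.8% and 6.49% of cells and macrophage and monocyte-like cells 14.2% and 9.61%. With 1 library each, fewer cells of a class in the skin and fewer cells recovered from it cannot be told apart.

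Among other ligands of the same receptors, 2 of 7 measured in macrophage and monocyte-like cells were at least 1.5-fold higher and 0 lower (median 0.18), against 13.8% and 11.5% of all genes in the class and a median of 0.02. Ccl5, which attracts T cells and monocytes, stood at 33.5 and 75.3 CPM (1.17), and Ccl11 at 13.2 and 28.8, while Ccl4 stood at 802 and 537 (-0.58) and Ccl3 at 319 and 355 (0.16). Ccl5 and Ccl11 were low there, and other classes outside their main source held counts too. Ccl5 stood at 10.9 and 19.3 CPM in fibroblast-like and 17.5 and 7.28 in blood endothelial-like cells, and Ccl11 at 11.1 and 18.3 in T and NK-like cells. The part of free RNA in these values was not tested. In fibroblast-like cells Ccl11, the gene between Ccl7 and Ccl12 on the chromosome, did not differ beyond counting error, at 614 and 606 CPM (-0.02, -0.09 to 0.06). In T and NK-like cells 4 of 7 were higher and 1 lower, against 19.4% and 16.3% of all genes, with Ccl5 at 603 and 4147 CPM (2.78) and Ccl4 at 72.6 and 631 (3.12). The clusters of that class were unequally filled: cluster 0 held 72.6% and 43.9% of it and cluster 24 4.85% and 24.7%. These class values thus compare different mixtures of cells, and values within the clusters are not given here.

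Receptors that share these ligands differed by class. In macrophage and monocyte-like cells, where 11.5% of all genes were lower, 0 of 4 were at least 1.5-fold higher and 1 lower: Ccr1, a receptor of CCL7 among others, stood at 121 and 31.6 CPM (-1.92, -2.50 to -1.43). In T and NK-like cells Ccr1 stood at 47.8 and 10.2 (147 and 5 counts, -2.10, -3.88 to -0.98). Ccr8, the receptor of mouse CCL8, stood at 31.9 and 73.3 CPM there (1.21, 0.61 to 1.77). Since the clusters of T and NK-like cells were unequally filled, both ratios compare different mixtures of cells, and values within the clusters are not given here. Ackr1, which binds chemokines on venules, stood at 1141 and 1951 CPM in blood endothelial-like cells (0.77, 0.65 to 0.90). That class joins a venular and an arterial and capillary sub-cluster. Their shares in each library and Ackr1 within them are not given here, so the class value may compare different mixtures of cells.

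Genes that induce, restrain or degrade chemokine transcripts were read from lists in the same classes. Of 13 NF-kB, STAT and interferon regulators in macrophage and monocyte-like cells, 2 were at least 1.5-fold higher and 0 lower (median 0.32), and the share higher was close to the 13.8% of all genes. Among them was Irf1 (103 and 200 CPM, 0.96), a transcription factor of the interferon response. In fibroblast-like cells 0 of 13 passed 1.5-fold in either direction, against 9.65% of all genes higher and 10.5% lower. Cebpb and Cebpd stood at -0.39 and -0.45. Of 8 cytokine genes measured in fibroblast-like cells, 6 were at least 1.5-fold lower, against 10.5% of all genes, and 0 higher. Among these, Il33 stood at 92.5 and 34.8 CPM (-1.41) and Tgfb1 at 68.7 and 44.6 (-0.62). Il17a (103 and 2.74) and Il17f (51.6 and 2.15) are T cell genes. Il1b (49 and 15 counts) and Tnf (47 and 24 counts) rested on few counts in this class. Il6 stood at 694 and 492 CPM (-0.49). Of 8 genes that restrain chemokine induction or degrade chemokine transcripts, 2 were lower in fibroblast-like cells, Zc3h12a (-0.84) and Tnip1 (-0.87), and 0 higher. The shares of all genes there were 10.5% lower and 9.65% higher. In macrophage and monocyte-like cells 1 of the 8 was higher, Zc3h12c (1.16), against 13.8% of all genes, and 1 lower, Tnip1 (-0.63), against 11.5%. Of 5 genes for monocyte growth and survival measured there, 1 was lower, Cx3cr1 (76.9 and 41.9 CPM, -0.87), and 0 higher, beside the same shares of all genes. Csf1r stood at 607 and 593 CPM.

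Genes whose level followed each member most closely over the 20 profiles of 10 classes in 2 libraries were found among 11413 genes by Pearson's r of log2(CPM + 10). They share libraries and class totals, so r is a description. Vwa5a (0.93), Fn1 (0.92) and Pros1 (0.89) were closest to Ccl2, and Efcc1 (0.94) and Vwa5a (0.91) to Ccl7, while Ccl2 and Ccl7 stood at 0.89 to each other. Abca9 (0.92), F13a1 (0.91) and Pla2g15 (0.91) were closest to Ccl8, and Cd209b, Ptpro, Fcgr1 and Ear2 (all 0.97) to Ccl12. Since Ccl12 had at most 12.3 CPM outside macrophage and monocyte-like cells, its r rests mainly on the 2 profiles of that class. Within the class, Ear2 was a leading gene of cluster 7, where Ccl12 stood at 108 and 122 CPM, against 424 and 840 in cluster 6. Laptm5, Cd37 and Cd48 (0.99, 0.99 and 0.98), genes of leukocytes in general, were closest to Ccr2.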

How the data were processed

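Counts per gene and barcode for 2 single-cell libraries of 3' transcripts were deposited as whole numbers, per the file headers; the counting unit (reads or molecules), aligner, counter, cell calling and use of strand are not given in the sources used here. Per the submitters' processing notes, the genome was mm10, also named GRCm38. Gene names came from the deposited gene tables and coordinates from GENCODE vM21 (55230 identifiers, 99.6%). Promoters came from a set of RefSeq promoters, and the set used held 3 of the 5 genes. Groups follow the treatment in the labels. The members and gene lists were chosen with earlier results of these data known.

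Symbols listed more than once were summed. A barcode was retained with 200 or more genes and no more than 20% of counts from mitochondrial genes; too few genes excluded 192 and 7, and mitochondrial counts 105 and 101. Scrublet removed 83 doublets in the Shi-Bi-Man library and marked 0 with imiquimod, so it did not work there. Median counts per barcode were 1617 (500 to 37288) and 1762 (500 to 27703). Clustering used scanpy (1.11.5) without integration: 10000 counts per cell, log, genes in at least 3 cells, 2000 variable genes, 30 components, 15 neighbours and Leiden resolution 1. All chemokine, chemokine receptor and listed genes were left out of the variable genes. A cluster was named with at least 3 markers of a class that were at least 2-fold above other cells and in 10% of its cells. A cluster stayed unnamed where another class had more markers among its top 10 genes.

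Class counts were summed and given as CPM with exact Poisson intervals. Log2 ratios had 0.5 added to each count and exact conditional binomial intervals. Shares had Clopper-Pearson intervals after thinning to 500 counts. A gene was measured with at least 20 counts in a class over both libraries and called past 1.5-fold; no fold was given where both counts were at or under 3. Genes named are the 5 members, measured members of the lists and the 5 genes most like each member among those with at least 200 counts. No test between libraries was run. The ratio script was tested on simulated counts. Alternatives covered filters, doublets, clustering, scaling (edgeR 4.0.16 TMM, DESeq2 1.42.0 size factors), free RNA, cluster weights and thinning, and their effect is given at the end. Some genes of the lists are not reported here.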

Additional observations from a re-analysis of the deposited data

How the results depend on the processing

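No paired analysis was possible because each group held 1 library, and no library could be left out. Of the listed alternative settings for the log2 ratios, 135 stayed within the counting interval, 17 lay outside it and 1 turned the sign; of those added after seeing the data, 19, 18 and 9 did so. All 10 levels stayed within it, and each gene kept its highest class when all variable genes were used in clustering. The cause of these shifts was not tested. Without the alternatives named here, directions held, except where the class ratio was near 0 (Ccl2 and Ccr2 in macrophage and monocyte-like cells).

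With clusters weighted by their imiquimod shares, the ratio in fibroblast-like cells was -0.13 for Ccl2, 0.26 for Ccl7 (from -0.45) and 0.034 for Ccl8. In macrophage and monocyte-like cells it was -0.091 for Ccl2, 0.029 for Ccl7, 1.76 for Ccl8, 0.76 for Ccl12 and 0.056 for Ccr2, and for Ccl2 in keratinocyte-like cells it was -0.19. Blood endothelial-like cells were 1 cluster and gave no such value. Single clusters 4, 5, 9 and 16 of fibroblast-like cells gave -0.22, 0.33, 0.52 and -0.16 for Ccl2, 0.25, 0.19, 0.82 and 0.38 for Ccl7, and -0.052, 0.27, -0.61 and 0.58 for Ccl8. Clusters 6 and 7 gave -0.34 and 0.29 for Ccl2, 0.037 and 0.011 for Ccl7, 1.80 and 1.17 for Ccl8, and -1.59 and 0.19 for Ccr2; cluster 7 gave 0.18 for Ccl12 and cluster 1 gave 0.74 for Ccr2 in T and NK-like cells.

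The mean of per-cell CPM gave -0.55 for Ccl2, -0.22 for Ccl7 and 0.64 for Ccl8 in fibroblast-like cells. Without the 1% of cells with most counts, Ccl2 was -0.62 and Ccl8 0.44 there, and Ccl8 was 2.55 and Ccl12 1.23 in macrophage and monocyte-like cells. At resolution 2 the latter class gave -0.058 for Ccl2, 0.15 for Ccl7 and 1.99 for Ccl8, and TMM and DESeq2 scaling gave 2.08 and 2.07 for Ccl8. Removing the highest 8% of doublet scores gave -0.53 for Ccl7 in fibroblast-like cells, and keeping doublets gave -1.56 for Ccl2 in blood endothelial-like cells.

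The share of cells with a count, Shi-Bi-Man minus imiquimod, was 1.12 percentage points for Ccl7 in fibroblast-like cells without thinning (-2.31 with it). Thinned to 1000 counts it was 7.37 for Ccl12 and -4.61 for Ccr2 in macrophage and monocyte-like cells and -9.24 for Ccr2 in T and NK-like cells. Without thinning the Ccr2 values were -6.99 and -9.60. List genes past the fold numbered 8 in fibroblast-like cells at 2-fold (16 at 1.5-fold). In blood endothelial-like cells they numbered 17, and 7 with at least 50 counts, 28 with no filter and 10 at 2-fold. At 1.5-fold, 9.65% of all genes were higher and 10.5% lower in fibroblast-like cells, and 13.7% and 18.7% in blood endothelial-like cells. Shares of all genes at the other settings are not given here.

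With 1 library per group, intervals cover counting error only, and differences between mice, dissociations or sequencing runs cannot be told apart from the treatment. Outside leukocytes, ratios of Ccl12 and Ccr2 rest on few counts.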
